A study of Mus musculus with 6 samples.

Results

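The genes described here are 45 genes of DNA excision repair, of DNA break repair and of the p53 pathway. They were chosen by name, with earlier results of these data known, and compared between *Bmal1*-/- and *Bmal1*+/- mouse skin. Of these, 43 had a probe set of their own on the array, 1 for each gene, and the other 2 were not analysed here. The 43 genes are 24 repair genes and 19 genes of the p53 pathway, among 23410 probe sets tested that are paired with at least 1 gene symbol. RNA was taken from dorsal skin of 3 *Bmal1*-/- mice, which lack the circadian transcription factor BMAL1, and of 3 *Bmal1*+/- littermates, on the C57BL/6J background and each skin went on a separate array. The labels give postnatal day 22 for all 6 mice, except that another label of *Bmal1*+/- replicate 1 gives day 23. Histology placed all 6 skins in telogen, when hair follicles rest. The control mice carry a mutant *Bmal1* allele themselves, and no wild-type skin was profiled on these arrays. *Bmal1*+/- replicate 1 was male and the other 5 mice were female, and their *Xist* and *Uty* levels matched these labels. The targeted gene, listed as *Arntl*, had an intensity of 325 to 365 in *Bmal1*+/- and of 569 to 664 in *Bmal1*-/- skin. The sources do not say whether its probes lie in the mutated part of the gene, so this level does not settle the genotypes by itself. *Nr1d1* and *Dbp*, known targets of BMAL1 and CLOCK, were lower in every *Bmal1*-/- mouse than in any control, the direction that the labels imply. On the log2 scale the difference was −3.11 for *Nr1d1* (limma adjusted p = 2.0e-05) and −2.55 for *Dbp* (limma adjusted p = 6.2e-06). Markers of epidermis and of dermal fibroblasts, fixed as lists of genes, were measured in all 6 skins and none was near 0, with a lowest intensity of 1037 for epidermis and of 407 for fibroblasts.

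Nucleotide excision repair cuts out the bulky lesions that ultraviolet light makes in DNA, and skin is the tissue best known for needing it. Base excision repair replaces single oxidised or otherwise damaged bases, and broken DNA is signalled by the kinases ATM, ATR and DNA-PK and rejoined by end joining or by recombination. These kinases stabilise the transcription factor p53, which is otherwise held low by MDM2 and MDM4, and p53 then turns on genes of growth arrest, of stress defence and of cell death. The clock is known to reach into this system, since the level of the excision repair factor XPA varies over the day in mouse liver and skin.

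None of the 43 genes passed limma's two-sided test of *Bmal1*-/- against *Bmal1*+/- skin (adjusted p under 0.05, Benjamini-Hochberg over all 23410 probe sets), where 0.231% of all probe sets passed, 0.132% lower and 0.0982% higher in *Bmal1*-/-. At the methods' threshold, an unadjusted p under 0.001, 0 of the 43 passed in limma, against 0.649% of all probe sets. The smallest adjusted p among them was 0.38, for *Atm*, and a test rebuilt on the principle of Cyber-T, the study's own, called 0 of the 43 and 1.15% of all probe sets. Values are deposited probe set intensities on a linear scale, and a log2 fold change is the difference of log2(intensity + 16), *Bmal1*-/- minus *Bmal1*+/-. At an unadjusted p under 0.05 from limma, 5 genes were lower (*Atm*, *Apex1*, *Brca1*, *Xrcc5* and *Prkdc*) and 1 was higher (*Btg2*). These 6 genes are 14.0% of the 43, against 8.77% of all probe sets in limma, of which 4.6% were lower and 4.17% higher. The Cyber-T type test put 4 lower and 0 higher at that threshold, but its share of all probe sets there was not counted. In 9 of the 43 genes (20.9%) all 3 *Bmal1*-/- mice lay below all 3 *Bmal1*+/- mice, against 7.68% of all probe sets, and in 0 genes all 3 lay above, against 6.99% of all probe sets and 14.7% for both directions together. These 9 genes were the 5 lower ones above with *Ercc5*, *Ercc6*, *Ercc8* and *Aen*, so 8 of them belong to repair and 1 to the p53 targets. Because the list was chosen with earlier results of these data known, its shares here and below are descriptions and not tests. With 3 mice against 3, the smallest p that an exact two-sided permutation test allows for a single gene is 0.1.

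The differences were small. The log2 fold changes of the 43 genes ran from −0.30 for *Brca1* to 0.17 for *Btg2*, which is 0.811-fold to 1.12-fold, and their median was −0.073 against 0.014 over all probe sets tested. Of the 43 genes, 28 had a log2 fold change below 0 and 15 above it, or 65.1% below 0 against 45.3% of all probe sets. Over the probe sets of mean intensity 64 or more, which include all 43 genes, 48.0% were below 0. The median 95% confidence interval of a gene reached 0.17 to each side on the log2 scale. The intervals of 42 of the 43 genes lay wholly within 0.5 of 0 on the log2 scale, and that of *Brca1* reached to −0.54. The 24 repair genes had a median log2 fold change of −0.098 and the 19 p53 pathway genes one of −0.030. In whole skin, less RNA per cell and fewer cells of a type cannot be told apart.

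**Figure D1:**
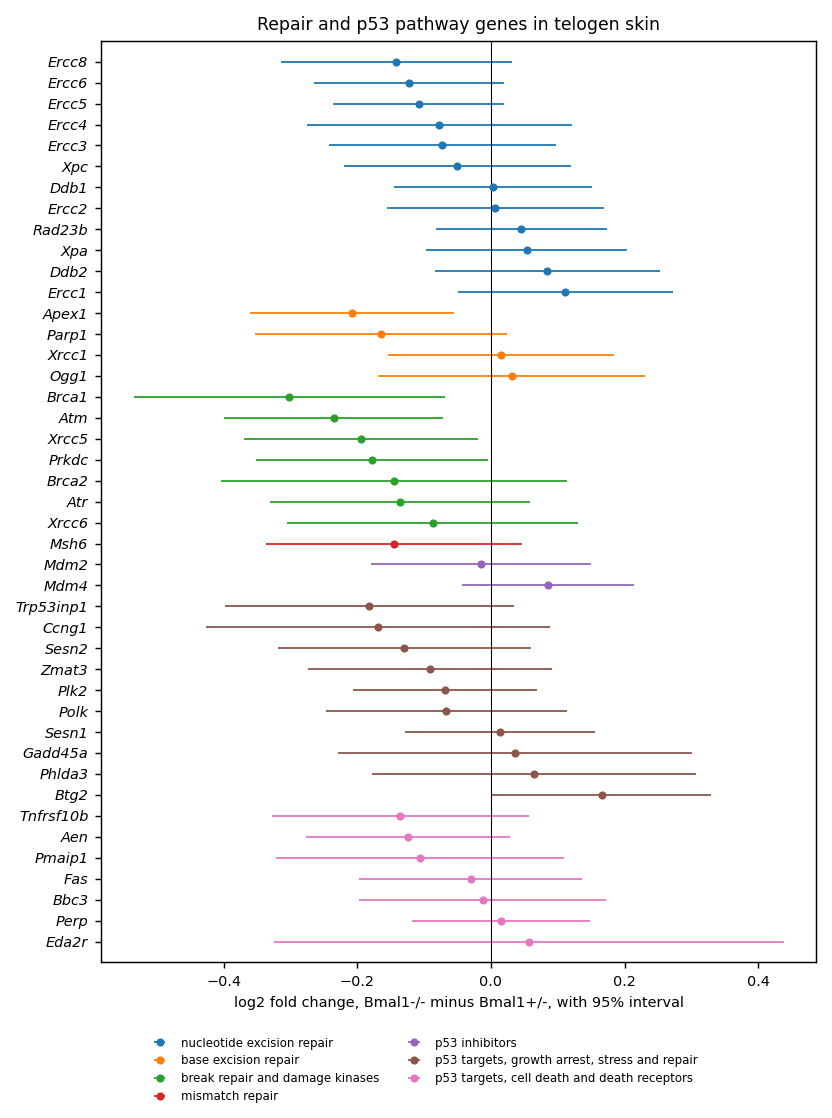
Log2 fold change (horizontal axis, *Bmal1*-/- minus *Bmal1*+/-, on the log2(intensity + 16) scale) of the 43 measured genes (vertical axis), with 95% confidence intervals from limma, coloured by group and ordered within it. All 7 genes of break repair and its kinases lie left of 0, and the intervals of *Brca1*, *Atm*, *Xrcc5*, *Prkdc*, *Apex1* and *Btg2* leave out 0 before adjustment for the number of tests.

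BMAL1 and its partner CLOCK bind the E-box CACGTG, and promoter sequences from RefSeq (build GRCm38.p6), from 250 bases before to 50 bases after each transcription start, were searched for these letters. CACGTG is its own reverse complement, so 1 search covers both strands. Promoters were listed for 34 of the 43 genes, and 9 of the 34 held CACGTG (26.5%), against 7.15% of all 32851 promoters of the same length and 9.50% of the 15614 measured genes with a promoter. The 9 genes were *Aen*, *Apex1*, *Bbc3*, *Eda2r*, *Ercc6*, *Ercc8*, *Fas*, *Parp1* and *Xrcc5*. Windows of 120 bases on the strand of the gene, with each CACGTG in capitals, are given for the 5 of these genes whose genotypes did not overlap, and for *Xpa*, whose window holds none. *Apex1* holds 3 copies, beginning 24 bases before the start and at bases 1 and 22 after it, and the other 4 hold 1 copy each.
Apex1 (chr14:50924859-50924978, + strand): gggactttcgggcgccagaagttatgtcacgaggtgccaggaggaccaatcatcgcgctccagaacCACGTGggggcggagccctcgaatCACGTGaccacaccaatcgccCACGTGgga
Ercc6 (chr14:32513368-32513487, + strand): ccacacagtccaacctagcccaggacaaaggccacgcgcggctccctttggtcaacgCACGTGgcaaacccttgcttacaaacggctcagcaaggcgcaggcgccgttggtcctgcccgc
Ercc8 (chr13:108158488-108158607, + strand): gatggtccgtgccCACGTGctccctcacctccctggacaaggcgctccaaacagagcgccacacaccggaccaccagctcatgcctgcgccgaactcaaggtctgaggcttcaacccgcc
Xrcc5 (chr1:72307171-72307290, + strand): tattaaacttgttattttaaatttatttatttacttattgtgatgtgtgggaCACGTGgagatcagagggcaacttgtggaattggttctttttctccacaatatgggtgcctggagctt
Aen (chr7:78895922-78896041, + strand): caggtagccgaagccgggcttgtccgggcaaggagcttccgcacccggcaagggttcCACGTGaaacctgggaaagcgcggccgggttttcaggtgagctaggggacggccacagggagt
Xpa (chr4:46196302-46196421, − strand): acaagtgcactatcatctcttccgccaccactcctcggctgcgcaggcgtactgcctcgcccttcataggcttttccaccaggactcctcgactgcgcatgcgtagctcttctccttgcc

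The 9 genes with an E-box in the window had a median log2 fold change of −0.12, from −0.21 for *Apex1* to 0.06 for *Eda2r*, and 8 of the 9 were below 0. The 25 genes with a listed promoter and no E-box in it had a median of −0.015, from −0.30 for *Brca1* to 0.17 for *Btg2*, with 13 below 0 and 12 above. Both ranges overlap, and 2 of the 4 lowest genes of the 34, *Brca1* and *Atm*, hold no E-box in the window. Over all 1483 measured genes with CACGTG in a listed promoter, the *Bmal1*-/- mice all lay below the *Bmal1*+/- mice in 10.9% and all above in 5.60%. Over the 14131 measured genes with a listed promoter and no CACGTG, these shares were 7.25% and 7.28%. For all measured genes with a listed promoter, the median log2 fold change was −0.008 with CACGTG and 0.018 without it. Of these genes, 53.1% were below 0 with CACGTG and 43.8% without it. Genes with the E-box were also brighter, with a median intensity of 428 against 280.1 without it, and among genes of mean intensity 64 or more the shares were 11.4% below and 5.44% above with it and 8.14% and 6.70% without it. These are descriptions of letters near a start site, and binding was not measured.

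**Figure D2:**
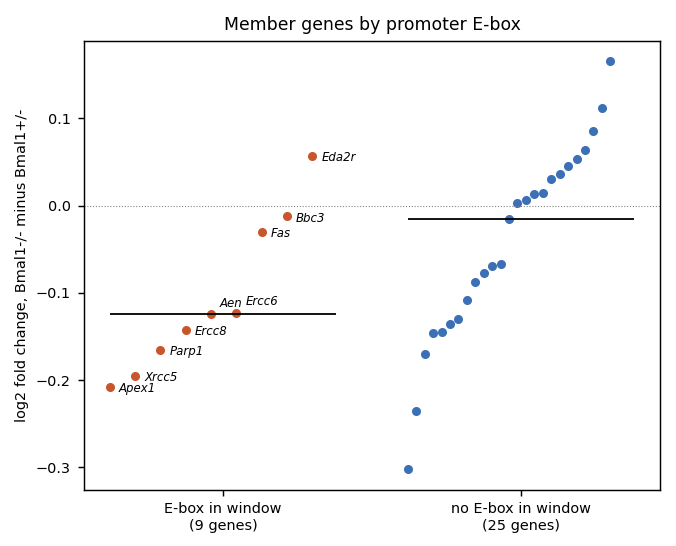
Log2 fold change (vertical axis, *Bmal1*-/- minus *Bmal1*+/-) of the 34 genes with a listed promoter, split by whether the window of 250 bases before to 50 bases after the start holds CACGTG. Points are genes, horizontal lines are medians (−0.12 for the 9 genes with the E-box and −0.015 for the 25 without), and the ranges overlap.

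Damage recognition in nucleotide excision repair showed no gene past the test. *Xpc* and *Rad23b*, which encode the complex that finds distorted DNA across the genome, had log2 fold changes of −0.05 and 0.05. *Ddb1* and *Ddb2*, the ultraviolet lesion sensor, had 0.00 and 0.08. *Ddb2* stood at 299, 324 and 299 in *Bmal1*+/- controls against 337, 311 and 332 in *Bmal1*-/- mice, so the genotypes overlapped. *Ercc8* and *Ercc6*, which act in transcription-coupled recognition, lay apart by genotype, lower in *Bmal1*-/- mice as in 7.68% of all probe sets. *Uvssa* and *Xab2*, other genes of this step measured outside the list, had overlapping genotypes and log2 fold changes of 0.01 and −0.03. *Ercc8*, the ubiquitin ligase subunit CSA, stood at 287, 287 and 313 in *Bmal1*+/- controls against 273, 254 and 272 in *Bmal1*-/- mice. This is a log2 fold change of −0.14 ± 0.08 (SE), for which limma gave an adjusted p of 0.65. *Ercc6*, the protein CSB that acts where RNA polymerase stalls, had 514, 512 and 486 against 457, 458 and 469. Its log2 fold change was −0.12 ± 0.06 (SE), for which limma gave an adjusted p of 0.63. For both genes the 3 *Bmal1*-/- mice lay below the 3 *Bmal1*+/- mice.

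No gene of opening, checking or cutting the damaged strand passed the test either. *Xpa*, the clock-linked factor that checks the lesion, stood at 436, 471 and 449 in *Bmal1*+/- controls against 457, 466 and 486 in *Bmal1*-/- mice. Its 2 groups overlapped, and the log2 fold change was 0.05 (95% confidence interval −0.10 to 0.20, adjusted p = 0.85 from limma), so that a level in *Bmal1*-/- skin between 0.935-fold and 1.15-fold of the *Bmal1*+/- level is within the interval. The paper gives no hour of sampling for these mice in particular, and the skins do not form a series over the day. A difference in *Xpa* at another hour was not tested. *Ercc2* and *Ercc3*, the helicases of TFIIH that open the DNA, had log2 fold changes of 0.01 and −0.07. *Ercc5*, the nuclease XPG that cuts on the 3′ side, had 893, 864 and 857 in *Bmal1*+/- and 822, 809.8 and 790.0 in *Bmal1*-/- skin. All 3 *Bmal1*-/- values were below the *Bmal1*+/- ones, with a log2 fold change of −0.11 ± 0.06 (SE), for which limma gave an adjusted p of 0.63. The 2 subunits of the nuclease that cuts on the 5′ side differed in sign, with 0.11 for *Ercc1* and −0.08 for *Ercc4*. *Ercc1* was the largest rise of this group, at 479.7, 502 and 460.2 in *Bmal1*+/- and 556, 509 and 497 in *Bmal1*-/- skin, with an adjusted p of 0.69 from limma. Across the 12 genes of nucleotide excision repair 6 were below 0 and 6 above, with a median log2 fold change of −0.024.

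In base excision repair the gene that stood apart was *Apex1*, which encodes the endonuclease that cuts the abasic site left when a damaged base is removed. Its intensity was 1142, 1131 and 1184 in *Bmal1*+/- controls against 1088, 955 and 949 in *Bmal1*-/- mice. *Bmal1*-/- replicate 1 lay near the controls and the other 2 well below them. The log2 fold change was −0.21 (SE 0.07, 95% confidence interval −0.36 to −0.05), with an unadjusted p of 0.013 and an adjusted p of 0.41 from limma. *Parp1*, the sensor of nicked DNA, had 729.6, 774 and 669.9 in *Bmal1*+/- and 712, 594 and 629.6 in *Bmal1*-/- skin, a log2 fold change of −0.17 with overlapping genotypes. *Ogg1*, the glycosylase for oxidised guanine, and *Xrcc1*, the scaffold of the pathway, had log2 fold changes of 0.03 and 0.01. *Msh6*, the mismatch repair gene of the set, had intensities of 429 to 516 in *Bmal1*+/- and of 396 to 445 in *Bmal1*-/- skin, and a log2 fold change of −0.15 (adjusted p = 0.67 from limma).

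All 7 genes of break repair and its kinases had log2 fold changes below 0, from −0.09 for *Xrcc6* to −0.30 for *Brca1*, with a median of −0.18, and none passed the test. In 4 of them the *Bmal1*-/- mice all lay below the controls, as in 7.68% of all probe sets. *Atm*, the kinase that answers broken DNA, stood at 615, 565 and 528 in *Bmal1*+/- controls against 468, 487 and 486 in *Bmal1*-/- mice. Its log2 fold change was −0.24 (SE 0.07, unadjusted p = 0.0096, adjusted p = 0.38 from limma), and the *Bmal1*-/- mice lay close together below all controls. The log2 fold change of *Atm* was −0.18 without *Bmal1*+/- replicate 1, the male mouse, and −0.29 without *Bmal1*+/- replicate 3. *Atr*, the kinase of stalled replication forks, had a log2 fold change of −0.14 with overlapping genotypes. *Prkdc*, the catalytic subunit of DNA-PK, had 533, 502 and 450.1 in *Bmal1*+/- and 446, 424 and 434 in *Bmal1*-/- skin, a log2 fold change of −0.18 ± 0.08 (SE), for which limma gave an adjusted p of 0.56. All *Bmal1*-/- mice lay below all controls, the highest just under the lowest control. The log2 fold change of *Prkdc* was −0.12 without *Bmal1*+/- replicate 1 and −0.24 without *Bmal1*+/- replicate 3.

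*Xrcc5* and *Xrcc6* encode the Ku proteins that hold DNA ends for DNA-PK. *Xrcc5* (Ku80) had 788, 809 and 727 in *Bmal1*+/- and 686, 613 and 727 in *Bmal1*-/- skin, a log2 fold change of −0.20 ± 0.08 (SE), for which limma gave an adjusted p of 0.51. The highest *Bmal1*-/- mouse and the lowest *Bmal1*+/- mouse were practically level, at 726.9 and 727.0, so the genotypes counted as not overlapping only by this margin, and without *Bmal1*-/- replicate 2 the log2 fold change was −0.13. *Xrcc6* (Ku70) had overlapping genotypes.

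*Brca1*, which works in repair by recombination, was the lowest of the 43 genes by fold change. Its intensity was 132, 129 and 138 in *Bmal1*+/- controls against 113, 111 and 91.2 in *Bmal1*-/- mice, a log2 fold change of −0.30 (SE 0.10, 95% confidence interval −0.54 to −0.07, unadjusted p = 0.016, adjusted p = 0.44 from limma). *Brca2*, its partner in recombination, had 99.0, 105 and 109.6 against 106, 96.6 and 78.6, a log2 fold change of −0.14 with overlapping genotypes. In both genes the lowest value was that of *Bmal1*-/- replicate 3. That mouse was also lowest in the markers of proliferating cells, whose 9 measured genes summed to an intensity of 1466 in it, to 2791 and 2815 in the other *Bmal1*-/- mice and to 2553 to 2627 in the *Bmal1*+/- mice. The lowest intensity of any of these 9 markers was 51.3, none passed the test, and 8 of the 9 had log2 fold changes below 0. Without *Bmal1*-/- replicate 3 the log2 fold change of *Brca1* was −0.22. The part of proliferating cells in the level of *Brca1* was not tested.

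**Figure D3:**
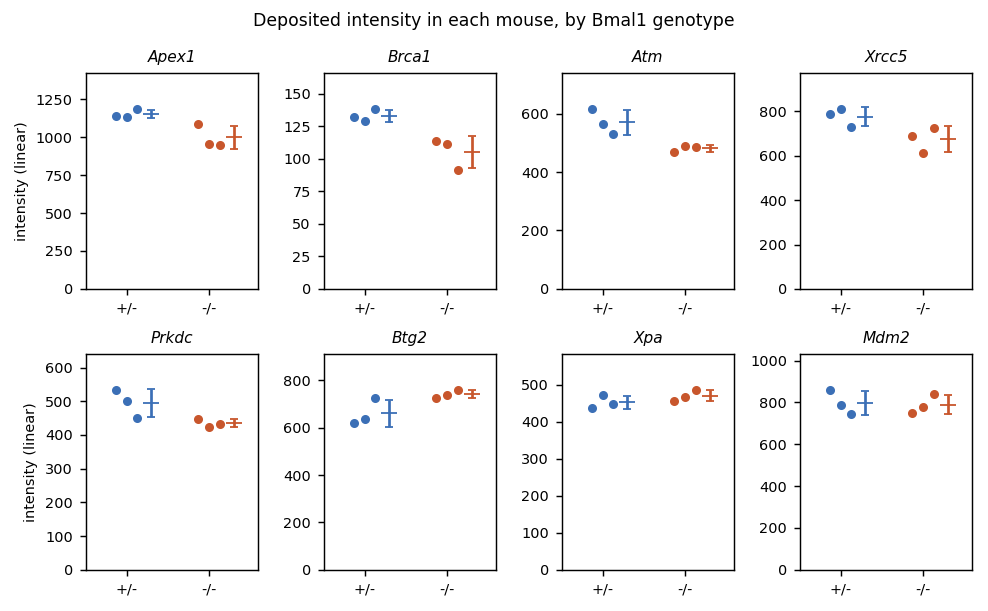
Deposited intensity (vertical axis, linear, from 0) by mouse (points), beside the genotype mean with its SD (n = 3 mice each), for the 6 genes at an unadjusted p under 0.05 and for *Xpa* and *Mdm2*. *Apex1*, *Brca1*, *Atm* and *Prkdc* show no overlap between genotypes, *Xrcc5* and *Btg2* have a pair of mice at nearly the same level, and the points of *Xpa* and *Mdm2* overlap.

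The inhibitors of p53 did not pass the test. *Mdm2*, the ubiquitin ligase that degrades p53 and is itself a p53 target, stood at 859.7, 788 and 747 in *Bmal1*+/- controls against 748, 781 and 839.6 in *Bmal1*-/- mice. Its log2 fold change was −0.01 (95% confidence interval −0.18 to 0.15, adjusted p = 0.97 from limma). *Mdm4*, the related inhibitor, had 1411, 1361 and 1394 against 1474, 1406 and 1545, a log2 fold change of 0.09 (adjusted p = 0.71 from limma). For both genes the range of each genotype reached into that of the other.

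Among the 10 p53 targets of growth arrest, stress and repair, 6 were below 0 and 4 above, and none passed the test. *Btg2*, an antiproliferative gene, had the largest rise of the 43 genes. It stood at 619, 635 and 726 in *Bmal1*+/- controls against 726, 738 and 759 in *Bmal1*-/- mice, a log2 fold change of 0.17 (SE 0.07, unadjusted p = 0.049, adjusted p = 0.56 from limma). *Bmal1*+/- replicate 3 reached the *Bmal1*-/- level, and the other 2 controls lay below it. *Trp53inp1*, a stress-induced partner of p53, had 2291, 2366 and 1874 against 2107, 1783 and 1847, a log2 fold change of −0.18 ± 0.10 (SE), for which limma gave an adjusted p of 0.63. Its genotypes overlapped, and the value was −0.12 without *Bmal1*+/- replicate 2 and −0.29 without *Bmal1*+/- replicate 3. *Ccng1*, cyclin G1, had 4436, 6249.5 and 4716 in *Bmal1*+/- and 4429, 4278 and 4844 in *Bmal1*-/- skin. Its log2 fold change of −0.17 rested on *Bmal1*+/- replicate 2 and was −0.02 without it. That mouse also had the highest summed level of the 8 striated muscle markers, 74624 against 58148 to 68694 in the other 5 mice, and the part of muscle in the level of *Ccng1* was not tested. None of the muscle markers passed the test, and none was near 0.

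The sestrins, which protect against oxidative stress, had log2 fold changes of 0.01 for *Sesn1* and −0.13 for *Sesn2*. *Gadd45a*, a growth arrest gene induced by damage, had 432, 586 and 609 in *Bmal1*+/- and 567, 519.8 and 566 in *Bmal1*-/- skin, with the lowest value in the male mouse. *Phlda3*, a repressor of AKT signalling, had 904, 1061 and 997 against 1218, 891 and 1008, a log2 fold change of 0.06 that became −0.05 without *Bmal1*-/- replicate 1. *Plk2*, *Zmat3* and *Polk* had log2 fold changes of −0.07, −0.09 and −0.07.

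Of the 7 measured p53 targets of cell death 5 were below 0 and 2 above. *Aen*, an exonuclease induced by p53, was the one whose genotypes did not overlap, at 519, 521 and 481 in *Bmal1*+/- and 466, 446 and 479.7 in *Bmal1*-/- skin. The log2 fold change was −0.12 (SE 0.07, adjusted p = 0.65 from limma), and the nearest mice of both genotypes were close to each other. The mitochondrial death genes *Bbc3* (PUMA) and *Pmaip1* (NOXA) had log2 fold changes of −0.01 and −0.11. The death receptors *Fas* and *Tnfrsf10b* had −0.03 and −0.14. *Perp*, which is both a p53 target and a part of desmosomes in stratified epithelium, had 6355, 6358 and 7023 against 6613, 6879.6 and 6440.3, and its log2 fold change was 0.02. *Eda2r*, an X-linked receptor of the tumour necrosis factor receptor family, had 212, 319 and 299.8 against 297, 227 and 343, with the largest SE of the 43 genes (0.17). Its lowest value was that of the male mouse, and its log2 fold change of 0.06 became −0.11 when that mouse was left out.

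**Figure D4:**
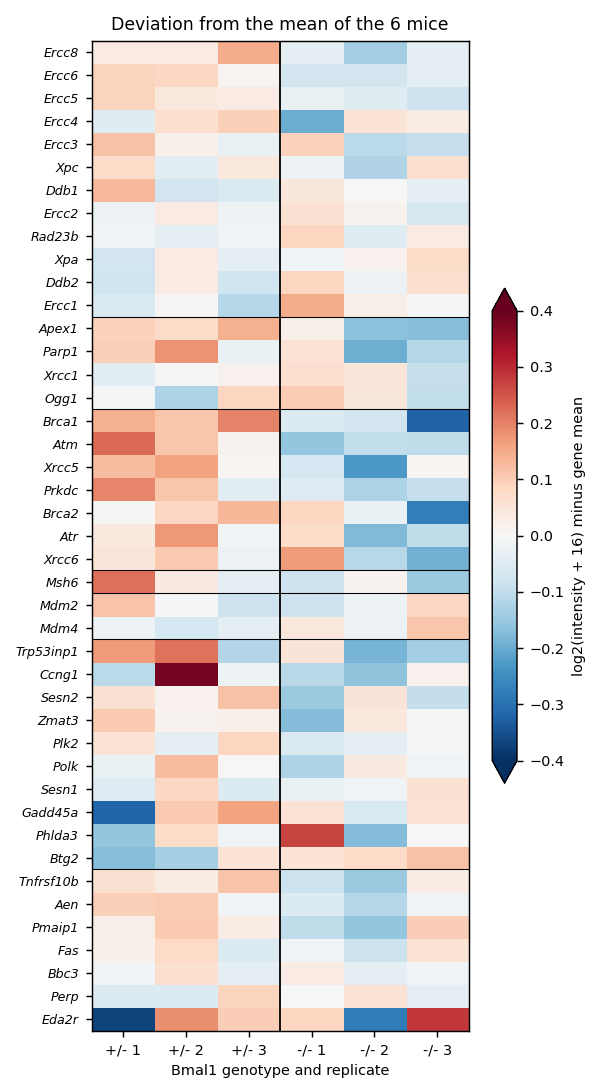
Deviation of each mouse (columns, *Bmal1* genotype and replicate) from the mean of the 6 mice, as log2(intensity + 16), for the 43 genes (rows, in groups separated by lines and ordered within a group by fold change). Break repair genes are mostly above the mean in *Bmal1*+/- and below it in *Bmal1*-/- mice, *Ccng1* is high in *Bmal1*+/- replicate 2, *Brca1* and *Brca2* are lowest in *Bmal1*-/- replicate 3, and *Eda2r* is lowest in *Bmal1*+/- replicate 1.

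By mouse, the median deviation of the 24 repair genes from their 6-mouse means was 0.06, 0.04 and −0.001 in *Bmal1*+/- and 0.03, −0.06 and −0.09 in *Bmal1*-/- skin on the log2 scale. For these 24 genes *Bmal1*-/- replicate 1 thus lay between the controls. For the 7 break repair genes alone it lay below them, with medians of 0.12, 0.11 and 0.01 in *Bmal1*+/- and −0.05, −0.11 and −0.10 in *Bmal1*-/- skin. For the 19 genes of the p53 pathway the medians were −0.01, 0.07 and 0.003 in *Bmal1*+/- and −0.03, −0.04 and 0.02 in *Bmal1*-/- skin, with no order by genotype. Over all 43 genes they were 0.03, 0.06 and 0.003 in *Bmal1*+/- and −0.01, −0.05 and −0.01 in *Bmal1*-/- skin. The genotypes did not overlap, but the nearest mice stood at 0.003 and −0.011. The SD of this median between mice of a genotype was 0.027.

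A list of 106 other genes of the same pathways, of which 93 were measured, had 0 genes at an adjusted p under 0.05 from limma. At an unadjusted p under 0.05, 13 were lower and 0 higher, or 14.0% of the list against 8.77% of all probe sets. The methods' threshold, an unadjusted p under 0.001, was passed by 2 of the 93, *Rev1* and *Steap3*, against 0.649% of all probe sets. The Cyber-T type test called 3 of the 93, *Rev1*, *Steap3* and *Ccnd1*, all lower, against 1.15% of all probe sets. *Ccnd1*, cyclin D1, was named after its values were seen, and it had 1353, 999.5 and 1037 against 826, 801 and 765, a log2 fold change of −0.48 ± 0.11 (SE), for which limma gave an adjusted p of 0.16. Its genotypes did not overlap, and its highest value was that of *Bmal1*+/- replicate 1, the male mouse. It is counted below among other p53 targets. By pathway, the counts lower and higher at an unadjusted p under 0.05 were 2 and 0 of 16 in other nucleotide excision repair, 1 and 0 of 15 in other base excision repair and 2 and 0 of 19 in other break repair. They were 1 and 0 of 5 in other mismatch repair, 1 and 0 of 10 among Fanconi anaemia proteins, 3 and 0 of 6 among translesion polymerase genes and 3 and 0 of 22 among other p53 targets. The gene of smallest p in each of the first 5 was *Lig1*, *Ung*, *Rad54l*, *Exo1* and *Fancc*, with log2 fold changes of −0.32, −0.23, −0.30, −0.42 and −0.22. All 5 were, like *Brca1*, lowest in *Bmal1*-/- replicate 3, and without that mouse their log2 fold changes were −0.18, −0.17, −0.21, −0.25 and −0.19. *Steap3*, a ferrireductase listed among other p53 targets, had 849, 892 and 787 in *Bmal1*+/- and 668, 650.5 and 697 in *Bmal1*-/- skin, a log2 fold change of −0.32 ± 0.07 (SE), for which limma gave an adjusted p of 0.15.

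Translesion polymerases copy across lesions that excision repair has not removed, and the Y family of these enzymes is made of *Rev1*, *Poli*, *Polh* and *Polk*, of which *Polk* is the p53 target among the 43 genes. *Rev1*, the scaffold of the family, stood at 838, 857 and 799 in *Bmal1*+/- controls against 642, 644 and 696 in *Bmal1*-/- mice. This is a log2 fold change of −0.33 (SE 0.06, unadjusted p = 0.00054, adjusted p = 0.12 from limma, and adjusted p = 0.027 from the Cyber-T type test). *Poli* and *Polh* were singled out only after their values were seen. *Poli* had 482, 483 and 435 against 360.4, 356 and 392, a log2 fold change of −0.33 ± 0.08 (SE), for which limma gave an adjusted p of 0.20. *Polh*, which copies past ultraviolet lesions, had 535, 543 and 499 against 462, 459 and 457, a log2 fold change of −0.19 ± 0.07 (SE), for which limma gave an adjusted p of 0.44. In *Rev1*, *Poli* and *Polh* the genotypes did not overlap, lower in *Bmal1*-/- mice as in 7.68% of all probe sets. The other translesion genes measured, *Rev3l*, *Mad2l2* and *Rad18*, had overlapping genotypes and log2 fold changes of 0.02, −0.001 and −0.10. *Polk* had 305, 341 and 312 against 284, 319 and 309, a log2 fold change of −0.07 (95% confidence interval −0.25 to 0.11), and its genotypes overlapped.

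**Figure D5:**
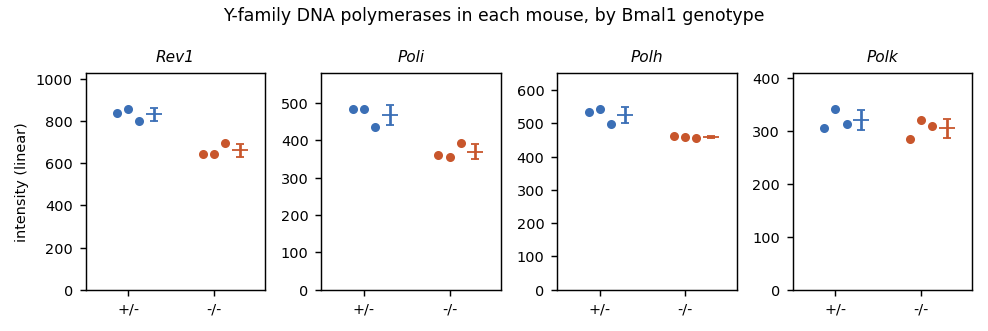
Deposited intensity (vertical axis, linear, from 0) of the 4 Y-family polymerase genes by mouse (points), beside the genotype mean with its SD (n = 3 mice each). *Rev1*, *Poli* and *Polh* lie apart by genotype, without passing an adjusted p under 0.05 from limma, and *Polk* overlaps.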

How the data were processed

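The 6 skin RNAs, 3 of each genotype, were hybridised to Affymetrix Mouse Gene arrays. The values the authors deposited are linear intensity values per probe set, for which the submitters' processing notes name PLIER 2.0 and Affymetrix Expression Console 1.1. Background correction and normalization between arrays: not given in the sources used here. An offset of 16 was added to each deposited intensity before taking log2, with no further normalization, which understates changes of dim genes. Platform annotation gave 1 gene for 21789 probe sets, several for 1621 and none for 12147, and the probe sets with a gene entered limma 3.58.1 (R 4.3.3; lmFit, then eBayes with trend), two-sided, adjusted after Benjamini-Hochberg. The brightest probe set stood for a gene that had more than 1.

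The genes, the lists and the 18 alternative settings were chosen with earlier results of these data known. Values by mouse are given for members past the test, at an unadjusted p under 0.05 or with genotypes apart. They are also given for the 5 largest rises and falls, for *Xpa*, *Mdm2* and *Eda2r*, and for some further members. The gene of smallest p in each other list is given with its log2 fold change, and *Rev1* and *Steap3* also by mouse. The methods name Cyber-T without its settings, and its rebuilt form used 101 probe sets per window and a prior weight of 10. The tests were tried on simulated data. Array medians were 219 to 236 units of intensity, and the number of arrays limits the precision. Promoters came from RefSeq (GRCm38.p6). Figures were drawn with matplotlib 3.10.9 in Python 3.11.15.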

Additional observations from a re-analysis of the deposited data

How the results depend on the processing

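The count of 0 members lower and 0 higher at an adjusted p under 0.05 was the same under all 18 alternative settings and at the methods' unadjusted threshold of 0.001, with a smallest adjusted p among the members of 0.22 to 0.68 over the fits. Leaving out each mouse in turn gave a median log2 fold change of the members of −0.085 to −0.055, and quantile normalization gave −0.047. The count of other repair and p53 genes called was 3 with the Cyber-T type test, 2 at the methods' unadjusted threshold, an alternative chosen after seeing the data, and 0 when each mouse was left out in turn and under the other settings. Of the 43 members, 30 kept their sign under every setting and 13 did not. Among the named genes, *Mdm2* turned to a log2 fold change of 0.0080 with quantile normalization and 0.039 with sex as a covariate, which equals leaving out *Bmal1*+/- replicate 1, the only male, and *Eda2r* turned to −0.11 in these last fits. Without single mice, *Mdm2* ranged from −0.061 to 0.039, *Eda2r* from −0.11 to 0.21 and *Phlda3* from −0.055 to 0.17. Without changing sign, the log2 fold change of *Ercc1* fell to 0.064 without *Bmal1*-/- replicate 1, that of *Mdm4* to 0.052 without *Bmal1*-/- replicate 3 and that of *Xpa* to 0.028 without *Bmal1*+/- replicate 1, and that of *Polk* was −0.021 without *Bmal1*+/- replicate 2 or *Bmal1*-/- replicate 1. Without *Bmal1*-/- replicate 1, *Mdm2* was 0.022 and *Phlda3* −0.055, and without *Bmal1*-/- replicate 3 *Eda2r* was −0.069. The sources do not say whether replicate numbers pair the mice. The correlations of same-numbered mice around their group means were 0.078, −0.35 and 0.056, which cannot settle this with 3 mice per group. With the replicate block, the count of members called remained 0, their median log2 fold change was −0.073, and all probe sets called were 34 lower and 20 higher, against 31 and 23. At an unadjusted p under 0.05 the members numbered 3 lower and 0 higher with the block, against 5 and 1, and between 2 lower (without *Bmal1*-/- replicate 2) and 8 lower (without *Bmal1*-/- replicate 1) when single mice were left out. The share of all probe sets at that threshold was not counted in these fits, so these changes in count are not particular to the members.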

Other observations

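Beside the repair genes, 10 other lists of skin genes were summed in each mouse, and none held a gene at an adjusted p under 0.05 from limma. Of the 5 melanocyte markers measured, 4 had all *Bmal1*-/- mice below all *Bmal1*+/- mice, against 7.68% of all probe sets. *Dct*, an enzyme of melanin synthesis named after its values were seen, had intensities of 1076, 785 and 728 in *Bmal1*+/- and of 604, 533 and 474 in *Bmal1*-/- skin, and the 5 markers summed to 1456 to 1892 and to 1040 to 1224. The 12 immediate early genes, several of which respond within minutes to handling and stress, summed to 7325 to 7672 in *Bmal1*+/- and to 5980 to 7112 in *Bmal1*-/- skin, and 11 of the 12 had a log2 fold change below 0.

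The sums of the other lists overlapped between genotypes. Values below 0 were found in 7 of 8 dermal fibroblast markers (median log2 fold change −0.14) and in 6 of 7 macrophage and T cell markers (median −0.12). Values above 0 were found in 5 of 6 adipocyte markers (median 0.13) and in 5 of 6 endothelial markers (median 0.13). The 8 epidermal markers had 5 below 0 and 3 above, the 8 striated muscle markers 4 and 4, and the 7 anagen hair matrix markers 4 and 3. The part of any of these in the repair genes was not tested.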
